A study of Danio rerio with 18 samples.

Results

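Cocktails 7 and 8 were a pair of guide RNA (gRNA) mixtures injected into zebrafish embryos, and their 4 libraries were set against the 12 libraries of Cocktails 1 to 6 from the same study. The pair was chosen by its gene counts, since it differed from the other cocktails in earlier work on these same libraries. The comparison that chose the pair is therefore given as a description, without p-values, and so are measures made from the same gene counts. In that comparison, calls and counts of genes under a p threshold only sort genes and are no test of the pair. Tests between groups are given only for the shares of reads counted to no gene and for Cocktail 7 against Cocktail 8. Of 13340 genes with enough counts, 53 stood apart in the pair: 40 were lower and 13 were higher. The series holds 18 libraries, and the remaining 2 come from control embryos.

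RfxCas13d is a CRISPR nuclease that binds a gRNA and cuts RNA carrying the matching sequence. In the zebrafish embryo it is used to deplete mRNAs, including those the mother deposits in the egg. At 4 h post-fertilisation, the stage sampled here, many maternal mRNAs are still being cleared while transcription from the embryo's own genome has begun, and an outer epithelium, the enveloping layer, and a yolk syncytial layer have formed.

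The study asked how well computational models built outside the embryo predict depletion inside it, with 200 gRNAs divided over 8 cocktails. Cocktails 1 to 8 each held 25 gRNAs, with an amount of 10 pg per embryo stated, and all were labelled RfxCas13d knockdown. Whole embryos were sampled at 4 h post-fertilisation in all groups, with 2 libraries per cocktail and 2 for the RfxCas13d control. The sources used here do not give the matched genes, the strain, the basis of the 10 pg (each gRNA or the whole mixture) or the full content of the control injection. None of the genes below is therefore described as a gRNA target. Replicates are not stated in the labels to be separate clutches or injections, and p-values then measure only how far these samples spread, which could be technical variation. A whole embryo mixes cell types, and fewer cells of a type cannot be told apart from less RNA per cell.

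Gene counts ran from 2544027 to 4864939 per library. Replicates differed by more than sampling noise in every group (chi-square of at least 3.4 per degree of freedom), and their log2 levels correlated across genes with r between 0.874 in Cocktail 1 and 0.960 in Cocktail 6. Of the 16 cocktail libraries, Cocktail 3 replicate 2 and Cocktail 1 replicate 1 lay farthest from their median, with median absolute log2 distances of 0.457 and 0.377. The 4 libraries of Cocktails 7 and 8 lay between 0.215 and 0.296, inside the range of the others. Markers of neurons, muscle and blood were nearly absent in this stage, since 1 of 30 later tissue genes passed the filter on low counts. Keratin genes, several of which mark the enveloping layer, were very low in Cocktail 1 replicate 1. Their summed level there was 15.1 CPM (gene counts scaled to library size). It ran from 658 to 2501 CPM in the other cocktail libraries and was 6387 and 6073 CPM in the controls.

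The share of reads that mapped nowhere was higher in the pair on average. It was 39.9% and 32.2% in Cocktail 7 and 47.3% and 29.7% in Cocktail 8, a mean of 37.3% ± 7.94 (SD, n = 4). In Cocktails 1 to 6 it ran from 21.6% to 36%, with a median of 26.9% and a mean of 27.2% ± 4.7 (SD, n = 12), and the controls had 10.1% and 10.8%. Replicate 1 of each cocktail of the pair lay above all 12 other libraries, while replicate 2 of each lay inside their range. The difference had a two-sided exact permutation p = 0.0176, out of 1820 arrangements of the group labels. Adjusted over the 7 library measures compared, this p became 0.0615 and did not pass. It passed without Cocktail 2 replicate 2 (adjusted exact permutation p = 0.041), Cocktail 4 replicate 1 (0.0359) or Cocktail 8 replicate 2 (0.0462), and without Cocktail 8 replicate 1 the difference fell from 10.1 to 6.74 points (0.246). Libraries of 1 cocktail are not independent, and on cocktail means the exact permutation p was 0.0714, the smallest that 28 arrangements allow.

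Among mitochondrial transcripts, those of protein genes took a smaller share of counts in the pair on average, while the share of all mitochondrial RNA was not smaller. The 13 protein genes of the mitochondrial genome took 0.751% and 0.819% of gene counts in Cocktail 7 and 0.847% and 0.775% in Cocktail 8. Across Cocktails 1 to 6 the share ran from 0.747% to 1.27% with a median of 0.992%, and the controls had 0.541% and 0.773%. All 4 libraries of the pair lay in the lower part of that range, and Cocktail 1 replicate 1 alone lay below them. With the rRNA and tRNA genes included, 37 rows in all, the mitochondrial genome took 11.7% and 10.6% in Cocktail 7 and 10.7% and 9.51% in Cocktail 8, against 8.68% to 14.1% (median 9.61%) in Cocktails 1 to 6 and 10.5% in both controls. The difference in means was then 0.584 points upward, against -0.21 points for the protein genes. This alternative was added after seeing the data, and a single row held most of the share.

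Fewer genes were detected in the pair on average. At a depth thinned to 2544027 counts, 16945 ± 331 genes (SD, n = 4) were detected in the pair and 17381 ± 315 (SD, n = 12) in Cocktails 1 to 6. Cocktail 7 had 16775 and 16823 and Cocktail 8 had 16742 and 17439, against 16977 to 17748 (median 17451) in Cocktails 1 to 6. Cocktail 8 replicate 2 thus lay inside the range of the others. These measures and the gene counts come from the counts that chose the pair and carry no test between groups. The shares of multimapping, ambiguous and extragenic reads, which the choice left out, had adjusted exact permutation p-values between 0.14 and 0.235. The part that unmapped reads, depth or the mitochondrial share plays in the gene differences below was not tested.

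The 53 genes were those with a Benjamini-Hochberg adjusted p under 0.05 in edgeR and a change of at least 2-fold between the pair and Cocktails 1 to 6. The 40 lower genes made up 0.3% of the genes tested and the 13 higher genes 0.0975%. All 4 libraries of the pair lay beyond all 12 others in 32 lower and 12 higher genes. Among all tested genes, the pair was separated from the others on the low side in 72 (0.54%) and on the high side in 62 (0.465%). The median log2 change was -1.79 among the lower genes and 1.5 among the higher genes, against -0.03 over all genes. Since this comparison chose the genes, nothing further is read from these counts.

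How many genes were called depended on the libraries. Without Cocktail 1 replicate 1 the counts were 41 lower and 18 higher, and 38 and 13 of these were among the 40 and 13. Without Cocktail 7 replicate 1 and Cocktail 8 replicate 1, the libraries with the most unmapped reads, 4 genes were lower and 1 was higher, an alternative chosen after seeing the data. Those were snupn, ube2g1a, kdm4ab and FP102809.1 on the lower side and hapln4 on the higher side. This alternative kept 2 libraries of the pair, and fewer libraries alone can lower the counts. Leaving out only replicate 2 of each cocktail of the pair was not tried, so the part of unmapped reads was not tested. With Cocktail 7 alone against Cocktails 1 to 6 the counts were 14 and 3, of which 7 and 2 were among the 40 and 13. With Cocktail 8 alone they were 13 and 6, of which 8 and 3 were among the 40 and 13. When counts were summed per cocktail, so that 2 stood against 6, there were 10 lower and 8 higher genes. A model with 1 coefficient per group over all 18 libraries, which leaves differences between cocktails out of the spread, called 94 lower and 157 higher, so that most calls then lay on the higher side.

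**Figure D1:**
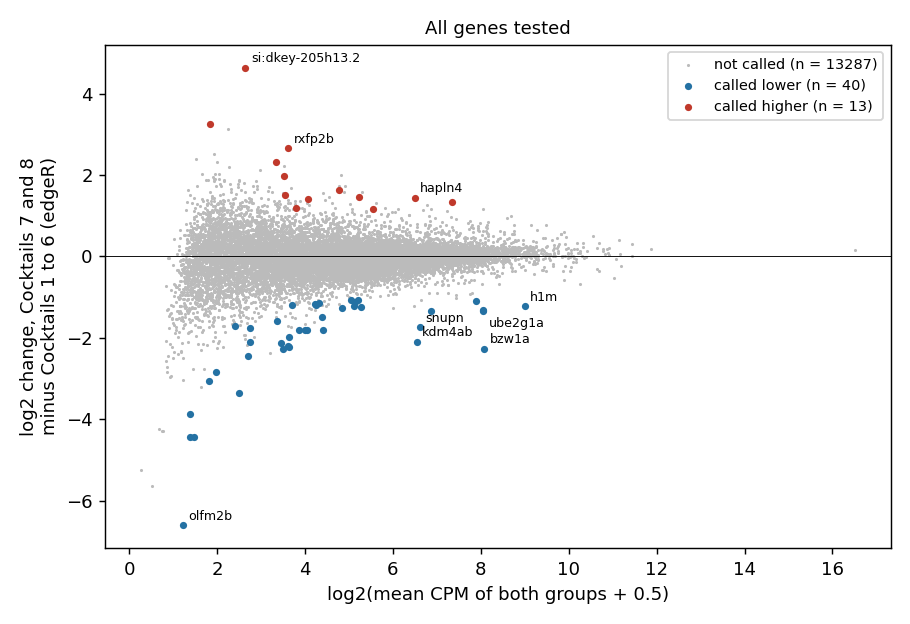
Log2 change of each of the 13340 genes tested, Cocktails 7 and 8 minus Cocktails 1 to 6 (vertical axis, edgeR), against its log2 mean CPM over both groups with 0.5 added (horizontal axis). Blue points are the 40 genes called lower, red points the 13 called higher and grey points the rest, and the most expressed of the called genes, such as bzw1a and h1m, lie on the lower side.

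In most of the 40 lower genes the pair did not lie wholly below both controls. In 20 of the 40, all 12 libraries of Cocktails 1 to 6 lay above both controls while the pair did not lie wholly below them. In 9 the pair lay below both controls while Cocktails 1 to 6 were not wholly above, in 5 both held, and in 6 neither did. By mean log2 level the control was nearer to the pair in 29 of the 40 lower genes and in 7 of the 13 higher genes. The same held for 61.9% of all genes tested, so the control lay nearer to the pair for most genes of any kind. These positions, like those of the higher genes below, use the same 2 control libraries throughout. Positions beyond both controls were not counted over all genes tested. Choosing genes for a distance between the groups favours such positions, so they describe the called genes only.

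Among the 20 genes with Cocktails 1 to 6 wholly above the controls and the pair not wholly below them, kdm4ab and zmynd11 encode chromatin proteins. Levels are CPM, which are gene counts scaled to library size. For kdm4ab, a histone lysine demethylase, Cocktail 7 had 36.4 and 37.2 CPM and Cocktail 8 had 38.2 and 28.1 CPM, against 65.4 to 204 CPM (median 155) in Cocktails 1 to 6 and 53.5 and 34.2 CPM in the controls. All 4 libraries of the pair lay below all 12 others and overlapped with the controls, and the log2 change was -2.10 ± 0.21 (SE). For zmynd11, a reader of methylated histone tails, the pair had 40.9, 59.5, 67.4 and 94.4 CPM, against 105 to 242 CPM (median 162) in Cocktails 1 to 6 and 67.1 and 67.6 CPM in the controls (log2 -1.34 ± 0.20). The libraries of Cocktail 8 lay at or above the control here and those of Cocktail 7 below it, and neither overlapped with Cocktails 1 to 6. The gene zmynd11 was picked after its values were seen, and so were adcy8, trmu, ppp4r4, psmd12, pttg1, ube2g1a, pabpn1l, olfm2b, FP102786.1, spa17 and anxa3b below.

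Others of the 20 were camk4, a calcium and calmodulin-dependent kinase, and nr4a1, an orphan nuclear receptor known as an immediate-early gene. In Cocktail 7 camk4 had 5.57 and 8.36 CPM and in Cocktail 8 it had 5.13 and 9.04 CPM, with 12.5 to 43.6 CPM (median 24) in Cocktails 1 to 6 and 2.3 and 6.31 CPM in the controls. The level of nr4a1 was 2.97 and 4.95 CPM in Cocktail 7 and 6.7 and 10 CPM in Cocktail 8, against 12.5 to 38.1 CPM (median 22.5) in Cocktails 1 to 6 and 3.9 and 4.5 CPM in the controls. Both genes were separated from Cocktails 1 to 6 in all 4 libraries, with log2 changes of -1.82 ± 0.29 and -1.81 ± 0.32, and Cocktails 1 to 6 stood above the control in every library. The adenylate cyclase gene adcy8 (-1.81 ± 0.41) is not among the 20. Its groups overlapped, since the second libraries of Cocktails 7 and 8 had 13.3 and 9.29 CPM against 2.6 and 1.58 CPM in the first and 12.1 to 49 CPM in Cocktails 1 to 6, and the controls had 21.6 and 10.8 CPM, on average nearer to Cocktails 1 to 6.

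Further named genes of the 20 were fbxo41, prnprs3, tpmt.1, BX914200.1, FP102809.1, zgc:152891 and si:dkey-110g7.8. The F-box gene fbxo41 had 2.97 and 3.1 CPM in Cocktail 7 and 0.789 and 0.489 CPM in Cocktail 8, against 5.49 to 15.3 CPM in Cocktails 1 to 6 and 0.919 and 0.601 CPM in the controls (log2 -2.46 ± 0.44). It was thus at control level in Cocktail 8 and somewhat above it in Cocktail 7. The prion-related gene prnprs3 ran from 0.619 to 4.09 CPM in the pair, 4.17 to 16.9 CPM in Cocktails 1 to 6 and 2.1 to 2.53 CPM in the controls (-2.10 ± 0.46), so the nearest libraries of the groups almost touched, and its call was lost in 8 of the 24 alternatives tried. For FP102809.1 the pair had 5.2, 1.24, 5.52 and 2.93 CPM, Cocktails 1 to 6 had 10.5 to 27 CPM and the controls 4.82 and 3 CPM (-2.28 ± 0.35). The thiopurine methyltransferase gene tpmt.1 had -1.77 ± 0.35, and the unannotated or clone-named genes BX914200.1 and zgc:152891 had -2.83 ± 0.56 and -2.23 ± 0.43. Means of zgc:152891 fell from 29.4 CPM in Cocktail 1 to 10.1 CPM in Cocktail 6, so its change averages over unlike cocktails. Cocktail 7 had 0.371 and 5.26 CPM of it, and Cocktail 8 had 5.91 and 4.89 CPM. For si:dkey-110g7.8 the pair had 4.09, 4.64, 3.15 and 7.09 CPM, above both controls at 2.07 and 1.2 CPM and below Cocktails 1 to 6 at 11.9 to 30.6 CPM (-1.97 ± 0.32). Each of these had all 4 libraries of the pair below all 12 others.

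Smaller changes among the 20 included that of eif2b2, which encodes a subunit of the exchange factor that recharges an initiation factor of translation. It had 26.4 and 21.1 CPM in Cocktail 7 and 21.7 and 17.8 CPM in Cocktail 8, against 35.6 to 57.6 CPM (median 45.4) in Cocktails 1 to 6 and 7.12 and 10.5 CPM in the controls (-1.12 ± 0.18). The pair lay between the control and the other cocktails with no overlap on either side. The mitochondrial tRNA-modifying gene trmu (-1.08 ± 0.23), the mitochondrial carrier gene slc25a40 (-1.17 ± 0.24), the protein phosphatase regulatory gene ppp4r4 (-1.2 ± 0.28) and the kinetochore gene cenpk (-1.26 ± 0.29) were also lower without overlap.

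A second set was lower in the pair than in the control as well, or had the control between the groups. Among these, snupn had the smallest standard error. It encodes snurportin, the adaptor that carries spliceosomal ribonucleoproteins into the nucleus. Cocktail 7 had 55.7 and 43.3 CPM and Cocktail 8 had 35.9 and 45.5 CPM, against 127 to 200 CPM (median 145) in Cocktails 1 to 6 and 59 and 66.4 CPM in the controls. All 4 libraries of the pair lay below both controls, and all 12 others lay above them (log2 -1.74 ± 0.15). The gene bzw1a, a regulator of translation initiation, had 98.4, 84.8, 79.6 and 106 CPM in the pair and 165 and 149 CPM in the controls. In Cocktails 1 to 6 its level was split: Cocktails 1 to 4 had means of 555, 634, 546 and 520 CPM, and Cocktails 5 and 6 had 226 and 195 CPM. The log2 change of -2.27 ± 0.40 for bzw1a thus averages over cocktails that differed from each other, and its call was lost without any 1 library of the pair.

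In chl1b, cntn5 and glrx2 the pair was low against the control too. The adhesion gene chl1b had 2.97 and 1.86 CPM in Cocktail 7 and 5.91 and 5.87 CPM in Cocktail 8, against 10.2 to 34.9 CPM (median 18.4) in Cocktails 1 to 6 and 16.8 and 7.81 CPM in the controls (-2.21 ± 0.38). For cntn5, a contactin, the pair had 0.743, 6.19, 5.13 and 3.42 CPM, Cocktails 1 to 6 had 6.87 to 31.9 CPM (median 16.8) and the controls 31.9 and 8.41 CPM (-2.13 ± 0.46). The mitochondrial glutaredoxin gene glrx2 had 0.743 and 0 CPM in Cocktail 7 and 0.394 and 1.22 CPM in Cocktail 8, against 3.19 to 8.08 CPM (median 5.43) in Cocktails 1 to 6 and 3.9 and 2.1 CPM in the controls (-3.07 ± 0.58). In these 3 genes the pair lay wholly below the controls. The call of cntn5 was lost in 7 of the 24 alternatives. The range of Cocktails 1 to 6 held both controls for cntn5 and 1 of them for chl1b and glrx2.

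The genes h1m, pttg1, ube2g1a and pabpn1l were likewise wholly below both controls in the pair. The maternal linker histone gene h1m had 452 and 369 CPM in Cocktail 7 and 209 and 190 CPM in Cocktail 8. It had 526 to 1113 CPM (median 636) in Cocktails 1 to 6 and 469 and 494 CPM in the controls (-1.23 ± 0.24). Cocktail 7 was just below the control, Cocktail 8 was further down, and all 12 other libraries were above it. For pttg1, which encodes securin, the pair had 221, 176, 96.6 and 102 CPM, Cocktails 1 to 6 had 280 to 722 CPM (median 332) and the controls 342 and 311 CPM (-1.34 ± 0.26). The ubiquitin-conjugating enzyme gene ube2g1a had 117 and 93.2 CPM in Cocktail 7 and 210 and 186 CPM in Cocktail 8, against 274 to 495 CPM (median 400) in Cocktails 1 to 6 and 460 and 407 CPM in the controls (-1.33 ± 0.19). The pair was lower in a different order for these genes: Cocktail 8 held the lower values for h1m and pttg1, and Cocktail 7 for ube2g1a. The embryonic poly(A)-binding protein gene pabpn1l had 148, 142, 168 and 146 CPM in the pair, 234 to 586 CPM in Cocktails 1 to 6 and 201 and 168 CPM in the controls (-1.09 ± 0.19).

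The largest fitted decreases rested on few counts and are given as ratios with counting error only. The olfactomedin gene olfm2b had 0 counts in all 4 libraries of the pair and 146 in the other 12. With a floor of 3 counts over the group, it was at least 15.2-fold lower, although 1 library of Cocktails 1 to 6 also had 0. The transporter gene slc6a11a had 2 counts in the pair and 167 in the others, a ratio of 26.1 (95% exact interval 7.12 to 218). FP102786.1 had 2 and 177 counts, a ratio of 27.7 (7.56 to 231), and spa17, a sperm protein gene, 3 and 165 counts, a ratio of 17.2 (5.79 to 84.3). Sequencing reads without molecular identifiers are not independent molecules, so these intervals are too narrow for the difference between cocktails.

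**Figure D2:**
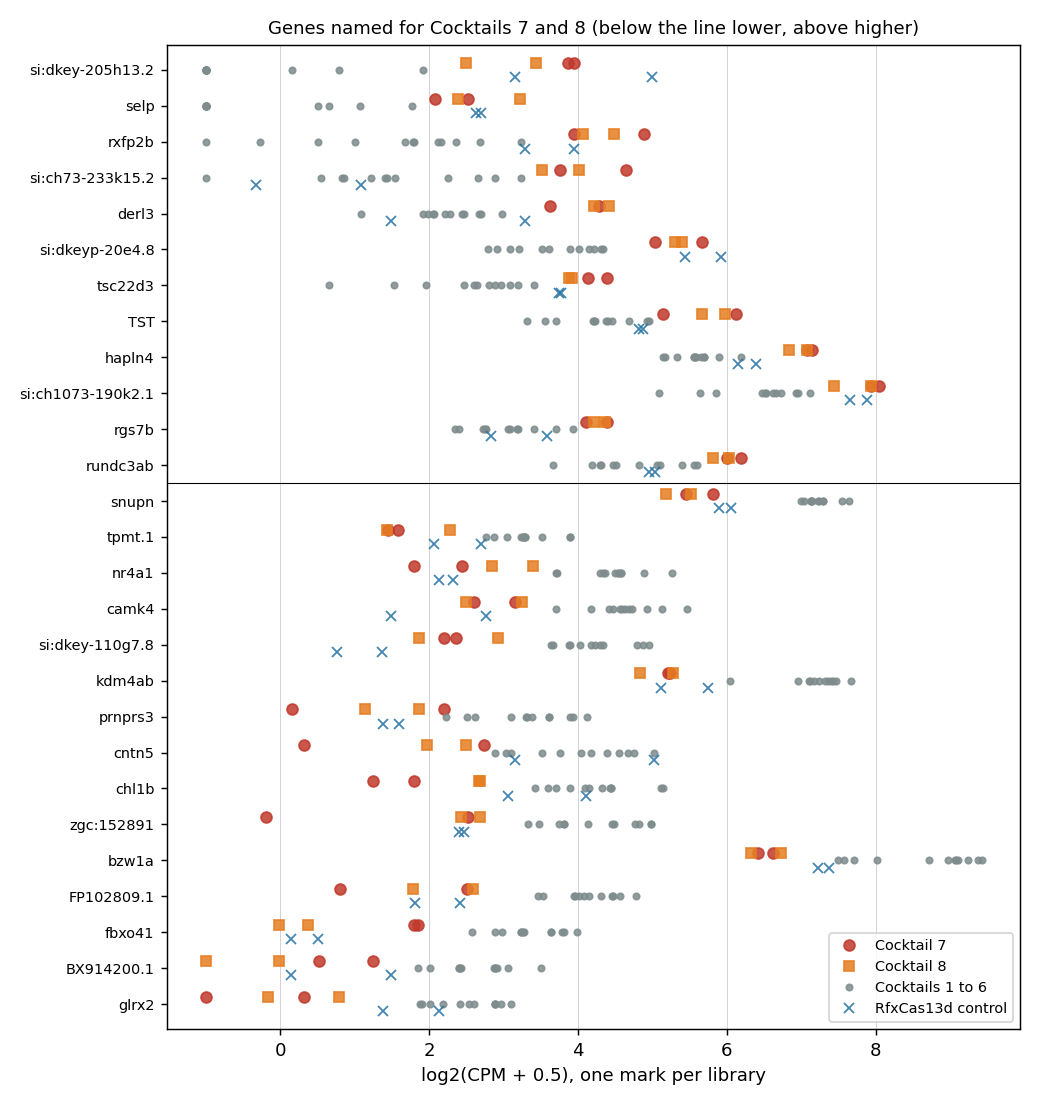
Level of each of the 27 genes named by rule in every library, as log2 of CPM with 0.5 added (horizontal axis), with 1 mark per library for Cocktail 7 (red circles), Cocktail 8 (orange squares), Cocktails 1 to 6 (grey dots) and the control (blue crosses). Below the line are 15 lower genes, where most blue crosses lie near the red and orange marks, and above it 12 higher genes, where blue crosses lie on either side.

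On the higher side, hapln4 had the largest change relative to its standard error. It encodes a link protein that ties proteoglycans to hyaluronan in the extracellular matrix. Cocktail 7 had 141 and 135 CPM and Cocktail 8 had 114 and 135 CPM, against 34.7 to 72.4 CPM (median 47.4) in Cocktails 1 to 6 and 83.6 and 70.9 CPM in the controls (log2 1.44 ± 0.15). The pair lay above both controls, and the lower control overlapped with the highest library of Cocktails 1 to 6. Another 5 annotated genes had the pair above both controls: TST, derl3, tsc22d3, rgs7b and rundc3ab. The sulfurtransferase gene TST had 69.5, 34.7, 62.3 and 50.1 CPM in the pair, 9.49 to 30.6 CPM in Cocktails 1 to 6 and 27.8 and 28.8 CPM in the controls (1.46 ± 0.24). For derl3, a derlin of protein degradation at the endoplasmic reticulum, the pair had 18.9, 11.8, 20.9 and 18.1 CPM, Cocktails 1 to 6 had 1.62 to 7.37 CPM and the controls 2.3 and 9.31 CPM (1.97 ± 0.30). Both controls of TST and 1 of derl3 lay inside the range of Cocktails 1 to 6.

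The leucine zipper gene tsc22d3, known in mammals as a target of glucocorticoids, had 17.1 and 20.4 CPM in Cocktail 7 and 14.6 and 14.2 CPM in Cocktail 8. It had 1.08 to 10.1 CPM (median 6.14) in Cocktails 1 to 6 and 12.9 and 13.2 CPM in the controls (1.5 ± 0.35). The control thus lay between the groups and closer to the pair. The gene rgs7b, a regulator of G-protein signalling, had 16.7 to 20.4 CPM in the pair and 4.58 to 14.8 CPM in Cocktails 1 to 6 (1.2 ± 0.27). The RUN domain gene rundc3ab had 55.6 to 72.8 CPM and 12.2 to 48 CPM (1.17 ± 0.26), with Cocktails 5 and 6 at means of 44.2 and 40.4 CPM and Cocktails 1 to 4 at 15.7 to 26.7 CPM. Calls of tsc22d3, rgs7b and rundc3ab were lost in 15, 14 and 9 of the 24 alternatives.

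In 6 other higher genes Cocktails 1 to 6 lay wholly below the controls, and the pair did not lie wholly above them. The relaxin receptor gene rxfp2b had 29, 14.9, 16.2 and 21.8 CPM in the pair, 0 to 8.93 CPM (median 2.95) in Cocktails 1 to 6 and 14.9 and 9.31 CPM in the controls (2.66 ± 0.48). The clone-named gene si:dkey-205h13.2 had 14.1 and 14.9 CPM in Cocktail 7 and 5.13 and 10.3 CPM in Cocktail 8. In 9 of the 12 other libraries it had 0 counts, and the highest of them had 3.27 CPM, while the controls had 31.5 and 8.41 CPM (4.64 ± 0.75). The selectin gene selp (ENSDARG00000096787, since the name is borne by several identifiers) had 3.71 to 8.8 CPM in the pair, 5.97 and 5.71 CPM in the controls, and 0 counts in 8 of the 12 other libraries (3.26 ± 0.76). Its call was lost in 14 of 24 alternatives. The annexin gene anxa3b (1.40 ± 0.25) had the pair and Cocktails 1 to 6 overlapping at 14.7 and 15.9 CPM, both under the controls at 46.4 and 44.4 CPM. The others of the 6 were si:ch1073-190k2.1 (1.34 ± 0.24) and si:dkeyp-20e4.8 (1.64 ± 0.26). In contrast, si:ch73-233k15.2 (2.32 ± 0.49) had 11 to 24.5 CPM in the pair against 0 to 8.95 CPM in Cocktails 1 to 6 and 1.61 and 0.3 CPM in the controls, and its call was lost in 8 alternatives.

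Both cocktails of the pair contributed to the 53 genes. Cocktail 7 and Cocktail 8 each lay on the called side of the mean of Cocktails 1 to 6 in 40 of 40 lower and 13 of 13 higher genes, which the choice of genes largely fixes. Each was at least 2-fold away in 33 of the 40 and in all 13, which the same choice favours. Cocktail 7 lay further from Cocktails 1 to 6 in 22 of the lower genes and Cocktail 8 in 17, and for olfm2b both were at 0 counts. Among the higher genes Cocktail 7 lay further in 9 and Cocktail 8 in 4. The same split was not counted over all genes tested, so it describes the called genes only. Between the cocktails, edgeR called 0 of the 53 genes different, with 6 at an unadjusted p under 0.05. DESeq2 called 1, h1m (log2 1.05, adjusted p = 0.0247), which had 1.04 ± 0.22 and an adjusted p of 0.189 in edgeR. In edgeR h1m passed with no filter on low counts (adjusted p = 0.0143) and with the 4 libraries of the pair alone (0.0161), and its adjusted p ran from 0.0143 to 0.823 over the alternatives. By limma on TPM 0 of the 53 were called. Over all 14514 genes tested, edgeR called 6 (0.0413%), with 446 lower and 331 higher at an unadjusted p under 0.05. Calls were thus rare among all genes, and the choice of the 53 favoured genes on which the pair agreed. The 0 of 53 therefore cannot show that the 2 cocktails were alike in these genes.

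**Figure D3:**
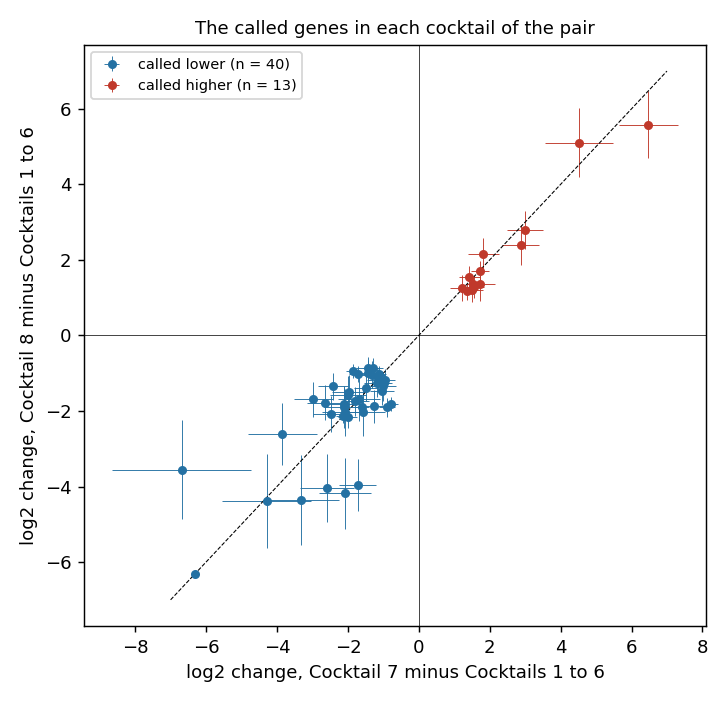
Log2 change of the 53 called genes in Cocktail 7 (horizontal axis) and in Cocktail 8 (vertical axis), each against Cocktails 1 to 6, with standard errors as bars where these are under 2. The dashed line marks equal changes, and the 40 lower genes (blue) fall in the lower left while the 13 higher genes (red) fall in the upper right.

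At the edges of the thresholds the genes looked alike. Just inside the adjusted p threshold were si:dkey-93m18.3 (log2 -1.72 ± 0.40) and cenpk (-1.26 ± 0.29), and just outside it ccdc88c (-1.2 ± 0.28) and btbd6b (-1.74 ± 0.41). Just inside the fold threshold were thyn1 and trmu, both at -1.08, and just outside it ptena (0.95 ± 0.18) and pfkfb4a (-0.95 ± 0.20). Without a fold minimum 49 genes (0.367%) were lower and 22 (0.165%) higher. The added ones included the proteasome gene psmd12, at 97 to 116 CPM in the pair and 169 to 247 CPM in Cocktails 1 to 6 (-0.89 ± 0.12), with 175 and 205 CPM in the controls.

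Cocktail 7 was then compared with Cocktail 8, a contrast that the comparison of the pair with Cocktails 1 to 6 does not use. The 2 cocktails were grouped with results of these counts known, so their likeness may have entered the choice. Few calls between them therefore cannot show that they were alike. Of 14514 genes tested, 4 (0.0276%) were lower and 2 (0.0138%) higher in Cocktail 7 than in Cocktail 8 by edgeR's quasi-likelihood test. At an unadjusted p under 0.05 there were 446 lower and 331 higher genes. All 6 called genes had both libraries of 1 cocktail beyond both of the other. Over all genes tested 2572 (17.7%) lay so on the lower side and 2524 (17.4%) on the higher side.

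In Cocktail 7, the mRNAs of ilf3a, ddx39ab and qrich1 were low. The double-stranded RNA-binding protein gene ilf3a had 37.1 and 59.8 CPM in Cocktail 7 and 233 and 274 CPM in Cocktail 8 (log2 -2.38 ± 0.25, adjusted p = 1.89e-05 in edgeR). Cocktails 1 to 6 had 143 to 323 CPM of ilf3a and the controls 283 and 333 CPM, so Cocktail 7 alone stood apart. The helicase gene ddx39ab, whose product takes part in mRNA export, had 455 and 551 CPM in Cocktail 7, 1390 and 1350 CPM in Cocktail 8, and 1152 to 2081 CPM in Cocktails 1 to 6 (-1.45 ± 0.21, adjusted p = 0.00237 in edgeR). The controls had 2057 and 2115 CPM of ddx39ab. For qrich1, a gene of a nuclear glutamine-rich protein, Cocktail 7 had 2.97 and 9.91 CPM against 50.1 and 53.8 CPM in Cocktail 8, 43 to 79.9 CPM in Cocktails 1 to 6 and 96 and 77.2 CPM in the controls (-2.97 ± 0.39, adjusted p = 0.00055 in edgeR). In each of these genes Cocktail 8 lay within the range of Cocktails 1 to 6.

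In Cocktail 8, the mRNAs of rbm7 and ago4 were low. The gene rbm7 encodes an RNA-binding subunit of a complex that directs transcripts to the nuclear exosome. It had 26.8 and 25.4 CPM in Cocktail 8 and 214 and 190 CPM in Cocktail 7, against 185 to 320 CPM in Cocktails 1 to 6 and 244 and 251 CPM in the controls (2.95 ± 0.24, adjusted p = 4.21e-07 in edgeR). The Argonaute gene ago4 had 22.5 and 18.8 CPM in Cocktail 8 and 57.6 and 114 CPM in Cocktail 7, against 60.5 to 183 CPM in Cocktails 1 to 6 (2.06 ± 0.33, adjusted p = 0.00879 in edgeR). Cocktail 8 stood below every other library for both genes, and the controls had 181 and 171 CPM of ago4. The sixth gene, BX323453.1, went the other way: it had 43.8 and 24.7 CPM in Cocktail 8, 2.23 and 2.17 CPM in Cocktail 7, 2.96 to 15.4 CPM in Cocktails 1 to 6 and 2.53 and 0.901 CPM in the controls (-3.93 ± 0.64, adjusted p = 0.00879 in edgeR). Here Cocktail 8 was above, and Cocktail 7 below, all 12 other libraries of Cocktails 1 to 6. The calls of BX323453.1 and ago4 were each lost in 4 of 11 alternatives, among them the removal of single libraries of the pair.

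**Figure D4:**
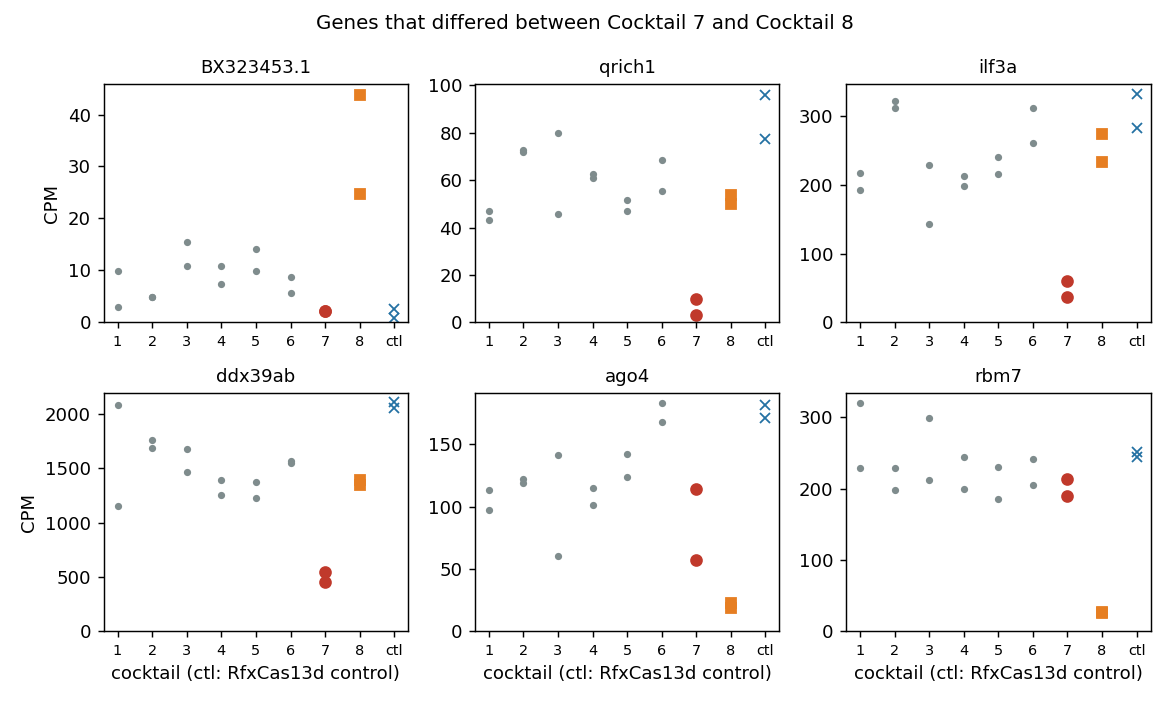
CPM (vertical axes, from 0) of the 6 genes that differed between Cocktails 7 and 8, with 1 mark per library and the cocktails and control along the horizontal axes. For qrich1, ilf3a and ddx39ab the red circles of Cocktail 7 lie below all other libraries, and for ago4 and rbm7 the orange squares of Cocktail 8 do.

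Lists of genes for cell layers and pathways of the early embryo were then read in the pair. The comparison is again the one that chose the pair, so counts and medians are a description, set against all 13340 genes, with a median of -0.03, 6257 above 0, and 930 lower and 581 higher at an unadjusted p under 0.05. Zygotic lists leaned upward in the pair without called members. Of 18 enveloping layer genes tested, 16 lay above 0 with a median log2 change of 0.59, and edgeR and DESeq2 each called 0. At an unadjusted p under 0.05 edgeR had 3 higher and 0 lower. The keratin krt18a.1 had 1068 ± 121 CPM (SD, n = 4) in the pair and 731 ± 348 CPM (SD, n = 12) in Cocktails 1 to 6, with 2340 CPM as the mean of the controls (log2 0.55 ± 0.72, not called). The member with the largest change was the keratin krt5, picked after its values were seen, at 40.9 ± 14.4 and 12.5 ± 9.71 CPM, with 416 CPM in the controls (1.72 ± 0.56, not called). The summed level of the list was 3992 and 4450 CPM in Cocktail 7 and 3456 and 3824 CPM in Cocktail 8, against 475 to 4789 CPM (median 2958) in Cocktails 1 to 6 and 9376 and 8852 CPM in the controls. The pair lay inside the range of Cocktails 1 to 6 and below the control. Cocktail 6, at 3938 and 4266 CPM, lay at the level of the pair, so that level was not particular to Cocktails 7 and 8. The lowest library, Cocktail 1 replicate 1, lay far from the next at 2052 CPM, and without it the list's median was 0.48.

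Medians of the other embryonic lists also lay above that of all genes. All 8 keratin genes tested, most of which also stand in the enveloping layer list, lay above 0 with a median of 0.91. Of 9 yolk syncytial genes 8 lay above 0 (median 1.00, or 0.88 without Cocktail 1 replicate 1). Its most expressed members were the homeobox gene mxtx2, at 290 ± 26.7 and 369 ± 189 CPM (-0.35 ± 0.66), and the nuclear receptor gene hnf4a, at 89 ± 26.4 and 41.9 ± 24.5 CPM (1.09 ± 0.56). The summed yolk syncytial level was 566 to 677 CPM in the pair, against 5.92 to 979 CPM (median 565) in Cocktails 1 to 6. Cocktail 6 summed to 655 and 719 CPM there. For keratins it had 2090 and 2291 CPM (1730 to 2501 in the pair), and for the mesendoderm list 2312 and 2465 CPM (1999 to 2777). The summed level of Cocktail 7 went past all 12 other libraries in the ventral list (833 and 900 CPM, against at most 790) and in the dorsal list (600 and 675 CPM, against at most 552), while Cocktail 8 did not. In the ventral list Cocktail 8 had 733 and 689 CPM, below Cocktail 6 at 783 and 790 CPM. In the dorsal list it had 461 and 496 CPM, below Cocktail 6 at 513 and 531 CPM. The early zygotic list summed to 4229 to 4654 CPM in the pair and 329 to 4652 CPM (median 4029) in Cocktails 1 to 6. The mesendoderm and Nodal list had 14 of 16 genes above 0 (median 0.54), the dorsal organizer and FGF list 12 of 17 (0.45), the early zygotic list 15 of 20 (0.31) and the ventral BMP and Wnt list 9 of 12 (0.25). Without Cocktail 1 replicate 1 these 4 medians were 0.42, 0.38, 0.19 and 0.13, and that of the keratins 0.79. None of their members, nor of the keratin and yolk syncytial lists, was called by edgeR or DESeq2 with all libraries. At an unadjusted p under 0.05 in edgeR the dorsal list had 3 higher, the mesendoderm list 2, the keratin and yolk syncytial lists 1 each, and all 4 had 0 lower. The early zygotic list had 2 lower (apela at -0.94 and otx1 at -0.53) and 0 higher. For the ventral list it was 1 lower (id2a at -0.68) and 0 higher. In these 2 lists the only such genes thus lay opposite to the list's median. Without Cocktail 1 replicate 1, 1 dorsal gene was called higher. The most expressed mesendoderm members were the actin-bundling gene fscn1a, at 655 ± 82.3 CPM (SD, n = 4) in the pair and 504 ± 105 CPM (SD, n = 12) in Cocktails 1 to 6 (0.38 ± 0.15), and the T-box gene tbx16, at 508 ± 79 and 266 ± 159 CPM (0.94 ± 0.69).

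Maternal genes of the oocyte and germ plasm leaned the other way, with 15 of 20 below 0 and a median of -0.25. In this list h1m was called lower and 0 genes were called higher, with the same calls by DESeq2. The unadjusted p was under 0.05 for 5 lower genes and 1 higher gene in edgeR. The claudin gene cldnd had 965 ± 110 CPM (SD, n = 4) in the pair and 1154 ± 503 CPM (SD, n = 12) in Cocktails 1 to 6 (-0.25 ± 0.27). The Balbiani body gene buc had 816 ± 148 and 1042 ± 236 CPM (-0.35 ± 0.17), and the germ-line helicase gene ddx4, picked after its values were seen, had 186 ± 11.7 and 238 ± 32.4 CPM (-0.35 ± 0.12). None of these 3 was called. Of the 5 members above 0, piwil2 had the largest change, at 55.8 ± 9.7 and 38.4 ± 10.8 CPM (0.54 ± 0.21, not called). It was the 1 higher gene at an unadjusted p under 0.05 and was also picked after its values were seen. Of the summed level, the pair had 3393 to 4130 CPM, Cocktails 1 to 6 had 3705 to 7610 CPM and the controls 2101 and 2161 CPM. Cocktail 2, at 3959 and 3755 CPM, and Cocktail 6, at 3794 and 3705 CPM, lay inside the range of the pair. That level was therefore not particular to Cocktails 7 and 8. The highest library was Cocktail 1 replicate 1, and without it the list's median was -0.18. Without Cocktail 7 replicate 1 and Cocktail 8 replicate 1 the list's median was -0.31 and h1m was not called.

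Of 43 histone genes 38 lay above 0, with a median of 0.34 (0.26 without Cocktail 1 replicate 1), while h1m, also a member, was the 1 called lower. At an unadjusted p under 0.05 edgeR had 8 higher and 1 lower. The list summed to 4469 to 5306 CPM in the pair, inside the 2987 to 5837 CPM (median 4797) of Cocktails 1 to 6. Copies of replicative histone genes are near identical, and the sources used here do not say how reads were shared out among them. Cytosolic ribosomal protein genes had a median of 0.17 over 78 genes (0.03 without Cocktail 7 replicate 1 and Cocktail 8 replicate 1), the proteasome list -0.01 over 52, and the 13 mitochondrially encoded protein genes -0.13. Of the 78 ribosomal genes 64 lay above 0, and of 58 spliceosome and SR genes 45 did. A majority of members above 0 was therefore not particular to the zygotic lists. Maternal activators of the genome (0.08 over 15), mRNA decay (0.03 over 33), heat shock and unfolded protein (0.06 over 20), interferon and RNA sensing (-0.01 over 10), cell cycle (0.05 over 33) and haplotype-variable immune genes (0.36 over 4) had 0 called in edgeR and in DESeq2, with at most 2 in either direction at an unadjusted p under 0.05. The same tools called 0 cytosolic ribosomal, proteasome and mitochondrially encoded genes at the 2-fold minimum, with at most 4 in either direction at an unadjusted p under 0.05 in edgeR. Further families had medians between -0.14 and 0.12: mitochondrial ribosomal proteins (-0.14 over 74), claudins (0.12 over 17), solute carriers (0.01 over 218), znf-named zinc finger genes (0.03 over 193), spliceosome and SR proteins (0.06 over 58), translation initiation factors (0.04 over 64), kinesins (-0.08 over 32) and nuclear pore genes (0.05 over 22). In these, edgeR called the solute carrier genes slc6a11a and slc25a40 and the initiation factor gene eif2b2 lower and 0 higher, with between 0 and 21 per family in either direction at an unadjusted p under 0.05. DESeq2 called 1 mitochondrial ribosomal, 2 solute carrier and 1 initiation factor gene lower, and 2 solute carrier genes and 1 zinc finger gene higher.

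**Figure D5:**
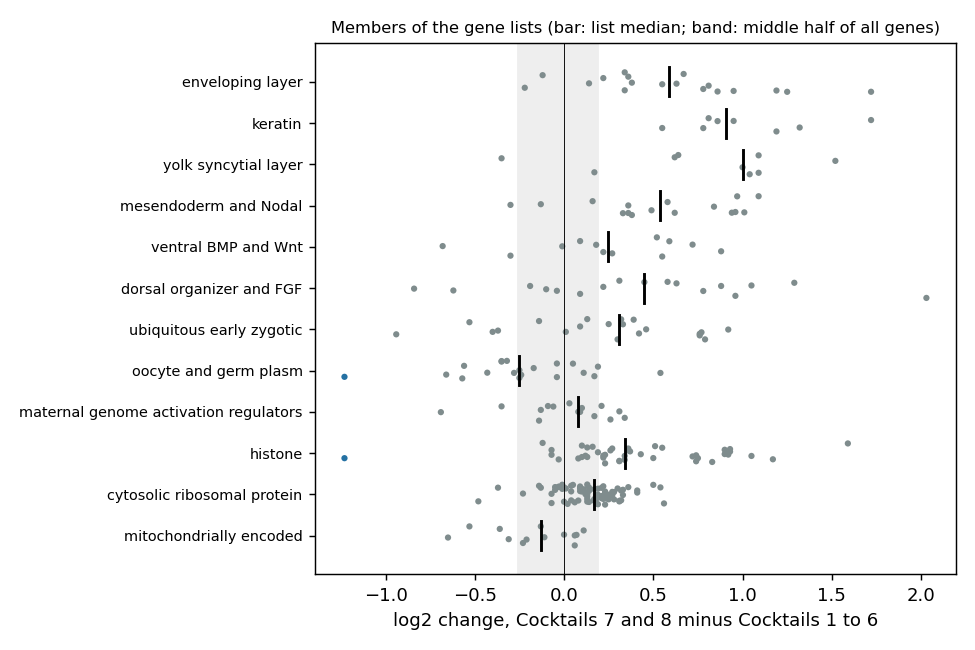
Log2 change, Cocktails 7 and 8 minus Cocktails 1 to 6, of each tested member of 12 gene lists (1 point per gene, scattered vertically only for visibility), with list medians as black bars, the called member h1m in blue and the middle part of all genes, between the quartiles, as a grey band. Medians of the enveloping layer, keratin and yolk syncytial lists lie to the right of the band, and that of the oocyte list lies near its left edge.

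The called genes were also read for size and position. Their median length relative to all genes, as far as it can be read from the ratio of counts to TPM, was 1.03 for the lower and 0.78 for the higher genes, and all genes tested had 1.00. The quartiles were 0.57 and 1.38 for the lower, 0.54 and 0.94 for the higher and 0.66 and 1.54 for all genes. Most of the 13 higher genes were thus shorter than the median gene. The median level in the group where they were higher was 24.8 CPM for lower and 20.4 CPM for higher genes, against 30.1 CPM over all genes. Names taken from a sequenced clone were borne by 9 lower and 4 higher genes, and by 14.5% of all genes tested. Of the 53 genes, 44 were matched to the RefSeq gene table, and no 2 of them stood within 20 genes of each other. The same count was not made for other sets of genes.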

How the data were processed

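Total RNA of whole zebrafish embryos was made into Nextera XT libraries, per the labels' protocols, a kit that does not mark strand. The authors deposited 1 table per library of whole-number counts per gene, used as raw counts, and 1 of TPM values, a unit read from their equal totals. The submitters' processing notes name bcl2fastq 2.20 and danRer11. For the aligner, counter and annotation, no name is given in the sources used here. Overlapping, antisense and near-identical genes are therefore uncertain. The 4 rows that name no gene were left out and held 22.6% to 55.5% of reads.

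Groups came from sample titles. Counts were scaled by TMM and tested with edgeR 4.0.16 (R 4.3.3, quasi-likelihood, robust, minimum count 10) in 2 groups of 4 and 12 libraries, or with 1 coefficient per group over 18 libraries for Cocktail 7 against Cocktail 8. Calls needed a Benjamini-Hochberg adjusted p under 0.05 and 2-fold. The script was checked on simulated counts. Alternatives used DESeq2 1.42.0, limma 3.58.1 on log2(TPM + 1) and log2(TPM + 0.1), RLE factors, other filters and fewer libraries. Genes named were, among calls without overlap and with 5 CPM in the higher group, the 15 lower and 15 higher with the largest change (12 higher existed), up to 6 in each direction between Cocktails 7 and 8, genes at the thresholds, and called list members, otherwise highly expressed ones; others are said to be chosen later. The members, lists and rules were chosen with earlier results of these data known. Shares of reads counted to no gene were compared by exact permutation, adjusted over 7 library measures, and measures made from gene counts are described without a test between groups. Dixon's critical value was used only to flag single libraries within the pair. Coordinates are left out, as a danRer11 genome was not used here. For 1 gene list no result is reported.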

Additional observations from a re-analysis of the deposited data

Results flagged for a closer look

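The level of tpmt.1 in Cocktail 8 replicate 1, 4.34 CPM, stood apart from the other 3 libraries of the pair, at 2.2 to 2.48 CPM, with a gap that took 0.870 of the range, above Dixon's critical value for groups of 4. By the same measure Cocktail 8 replicate 2, with 17439 genes detected at equal depth, stood apart from the 16742 to 16823 genes of the other 3 (0.884). Chance flags about 1 in 20 such groups, and 27 genes and 7 library measures were examined. The 6 genes that differed between Cocktail 7 and Cocktail 8, tested directly in edgeR, were BX323453.1 (log2 difference, Cocktail 7 minus Cocktail 8, -3.93), qrich1 (-2.97), ilf3a (-2.38), ddx39ab (-1.45), ago4 (2.06) and rbm7 (2.95).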

How the results depend on the processing

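Against 40 lower and 13 higher genes, the counts were 49 and 20 at 1.5-fold, 49 and 22 with no fold minimum, 101 and 33 with DESeq2, 10 and 8 with counts summed per cocktail, and 94 and 157 with 1 coefficient per group. They were 5 and 2 with the libraries numbered 1, 1 and 0 with those numbered 2 (edgeR, with 349 higher at an unadjusted p under 0.05), 14 and 3 with Cocktail 7 alone and 13 and 6 with Cocktail 8 alone. With limma they were 48 and 24 on log2(TPM + 1), 43 and 22 without a filter, and 71 and 11 on log2(TPM + 0.1). Leaving out 1 library gave 27 to 56 lower and 6 to 21 higher. When that library was of the pair, only 17 to 23 of the 40 lower and 6 to 9 of the 13 higher genes stayed called. When it was of Cocktails 1 to 6, 28 to 40 and 9 to 13 did. Without Cocktail 7 replicate 1 and Cocktail 8 replicate 1, added after seeing the data, 4 and 1 remained called, with 2 libraries left in the pair. RLE factors, no count filter, thinning and leaving out Cocktail 1 replicate 1 with Cocktail 3 replicate 2 (also added later) kept both counts within 1.5 times. A replicate block gave 34 and 12, all among the main calls; same-numbered libraries did not deviate together (correlations -0.119 to 0.122 over 36 pairs of groups), so the numbers are not taken as pairing. None of the 27 genes named by rule, nor of the 6 called between Cocktails 7 and 8, changed sign. Signs of the other genes named were not followed one by one. Among them mxtx2, the 1 yolk syncytial gene below 0, lay above 0 with limma on log2(TPM + 1). Between Cocktails 7 and 8 (4 lower, 2 higher) the block also gave 4 and 2, no filter gave 8 and 7 and limma on TPM 8 and 2, and leaving out 1 library gave 2 to 4 and 1 to 2. Leaving out 1 library, the difference between the pair and Cocktails 1 to 6 ran from 6.74 to 12.6 points for unmapped reads (adjusted exact permutation p 0.0359 to 0.246), from -601 to -369 for genes detected, from -0.234 to -0.186 points for the mitochondrial share (0.584, reversed, with all rows of the mitochondrial genome), and from -426472 to 65290 for gene counts, which turned positive without Cocktail 8 replicate 1. The causes were not tested.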
